A study of Mus musculus with 12 samples.

Results

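The dual-specificity MAP kinase phosphatases are enzymes that switch MAP kinases off. The genes described here are 10 of the family, measured in mouse macrophages: Dusp1, Dusp2, Dusp4, Dusp5, Dusp6, Dusp7, Dusp8, Dusp10, Dusp14 and Dusp16, chosen by family membership. A probe belonged to a gene where the array files give that gene's symbol or a synonym, which found 12 probes for the 10 genes among 31687 gene names on the array. All 10 were among the 22974 genes bright enough to be tested.

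A MAP kinase is active while a threonine and a tyrosine in its activation loop both carry phosphate, and these phosphatases remove both. Dusp1, Dusp2, Dusp4 and Dusp5 encode nuclear enzymes of the inducible class, Dusp6 and Dusp7 encode cytoplasmic enzymes that prefer the ERK kinases, and Dusp8, Dusp10 and Dusp16 encode enzymes that prefer the stress kinases JNK and p38. Dusp14 encodes a small atypical enzyme without the MAP kinase binding domain of the others. Bacterial lipopolysaccharide (LPS) activates ERK, JNK and p38 in macrophages through Toll-like receptor 4, and Dusp1 in particular is known as a brake on p38 and on cytokine production there.

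Macrophages were grown from the bone marrow of 2 Commd1 knockout (KO) and 2 Commd1 wildtype (WT) mice for 10 days in GM-CSF at 20 ng/mL. The cells of each mouse were divided into an untreated culture, a culture given LPS at 10 ng/mL for 3 h and a culture given LPS for 24 h, and each of the 12 RNA samples was hybridised to its own single-colour array. The 6 groups therefore hold 2 samples each: KO untreated, KO 3 h LPS, KO 24 h LPS, WT untreated, WT 3 h LPS and WT 24 h LPS. COMMD1 is a subunit of a complex that takes part in endosomal sorting and in the control of NF-kB. Age, sex, strain and the cells in which the knockout allele was lost are not given in the sources used here, and cultures from GM-CSF can hold dendritic cells beside macrophages.

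Levels below are log2 of the processed signal relative to the 75th percentile of the same array, so 0 means a signal equal to that percentile. Levels of different probes are not compared, since probes differ in brightness. Probe positions are those in the files (mm9), and the part of the gene they fall in was not annotated here. A difference is called, and a gene said to rise or fall, where the adjusted p of the moderated test in limma was under 0.05, adjusted over all genes tested. Errors after ± are standard errors of the log2 difference. With 2 arrays in a group, the number of arrays limits the precision, and all 12 arrays shared 1 estimate of the spread.

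The Commd1 probe checked the labels. Its level was -0.50 and -0.01 in KO untreated samples against 2.72 and 2.79 in WT untreated samples, a difference of -3.01 ± 0.23 (adjusted p = 0.00165), with differences of -2.92 and -3.05 at 3 h and 24 h. Whether this probe lies in the deleted part is not given in the sources used here. Between 59.2% and 72.9% of probes were well above background on each array, and no spot was saturated. Of 10 macrophage markers 9 were well above background in all 6 groups, with Cd163 below it in each. The 4 arrays of each time lay on a slide of their own, so LPS time and slide cannot be told apart, and on each slide the KO and WT arrays held fixed positions, so position cannot be separated from genotype. The linear-fit slope that the scanner software reports for the spiked-in RNA differed between genotypes. It was 0.794 to 0.799 on KO arrays and 0.736 to 0.743 on WT arrays at untreated and 3 h. At 24 h it was 0.842 to 0.870 on KO arrays and 0.820 to 0.824 on WT arrays.

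At 3 h of LPS the members moved in opposite directions. The inducible Dusp1, Dusp2 and Dusp5, the JNK and p38 phosphatase Dusp16 and the atypical Dusp14 rose in both genotypes. The cytoplasmic ERK phosphatases Dusp6 and Dusp7 fell in both. Dusp4 was called only in KO, where it rose, and Dusp10 only in WT, where it fell. Dusp8 was not called in either, by a probe that may not measure its mRNA. Dusp16 rose and Dusp10 did not, so members with the same preferred kinases did not all move together. Of the 10 genes, 6 rose and 2 fell in KO cells against KO untreated, where 26.4% of all genes tested were called higher and 25.7% lower. In WT cells 5 rose and 3 fell, against a background of 23.2% called higher and 23.4% lower. The median log2 difference over the 10 genes was 1.29 in KO and 0.97 in WT, beside medians over all genes tested of 0.06 in KO and 0.03 in WT. About every other gene on these arrays was called at 3 h (52.1% in KO and 46.6% in WT), and the members' counts are read against that share. Marker sums of other cell types moved with LPS too. Dendritic markers summed to 1.87 and 2.29 untreated, 5.97 and 6.93 at 3 h and 1.03 and 1.22 at 24 h in KO, and to 5.15 and 4.91, 8.20 and 7.13, and 1.56 and 1.53 at these times in WT. Neutrophil markers summed to 20.4 and 21.1 untreated, 11.8 and 13.8 at 3 h and 21.1 and 23.8 at 24 h in KO, and to 22.9 and 21.7, 16.9 and 17.1, and 23.0 and 25.7 in WT. These sums are in multiples of the array's 75th percentile, and their part in the LPS changes was not tested.

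**Figure D1:**
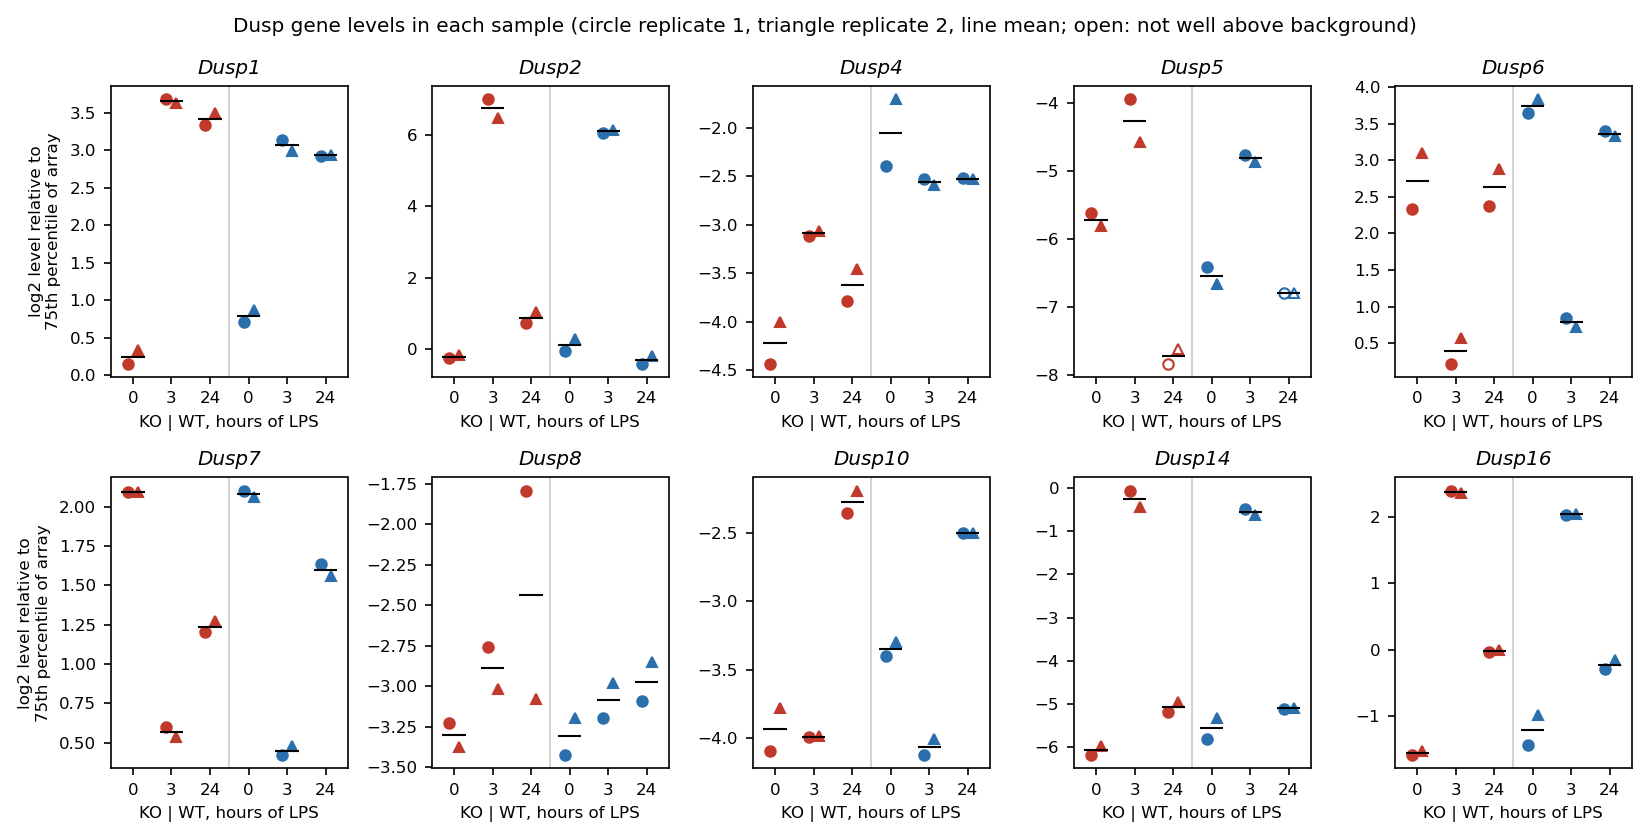
Log2 level of each gene in each sample, relative to the 75th percentile of the array, for KO (red, left) and WT (blue, right) at 0, 3 and 24 h of LPS. Circles and triangles are the samples of replicates 1 and 2, lines the group means, and open symbols were not well above background. Dusp2 and Dusp14 peak at 3 h, Dusp1 stays high at 24 h, Dusp6 dips at 3 h and returns, and Dusp10 is highest at 24 h in both genotypes.

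Dusp2, which encodes the nuclear phosphatase PAC-1 of blood cells, changed most among the 10. Its probe (chr2:127163930-127163989, plus strand, mm9) read -0.24 and -0.17 in KO untreated samples, 6.99 and 6.47 in KO at 3 h, and 0.73 and 1.04 in KO at 24 h. In WT it read -0.04 and 0.28 untreated, 6.05 and 6.14 at 3 h, and -0.40 and -0.20 at 24 h. The 3 h samples lay far above all others in both genotypes. Dusp2 rose 122-fold in KO (6.93 ± 0.19 on the log2 scale, adjusted p = 6.03e-08) and 62.8-fold in WT (5.97 ± 0.19, adjusted p = 1.30e-07). The 24 h minus 3 h difference was -5.85 ± 0.19 in KO and -6.39 ± 0.19 in WT. At 24 h it was still above untreated in KO (1.09 ± 0.19, adjusted p = 0.00138), whereas the WT difference of -0.42 ± 0.19 was not called (adjusted p = 0.1001). Under normexp background correction the WT difference was called (-0.43, adjusted p = 0.0474). Scaling over probes detected on all arrays gave the same call (-0.51, adjusted p = 0.0410).

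Dusp14, the atypical member, also rose at 3 h and fell back by 24 h. Its probe (chr11:83861916-83861975, minus strand, mm9) read -6.18 and -5.96 in KO untreated, -0.06 and -0.43 in KO at 3 h, and -5.19 and -4.95 in KO at 24 h. The WT samples read -5.82 and -5.32 untreated, -0.48 and -0.62 at 3 h, and -5.11 and -5.09 at 24 h. The gene rose 56.7-fold at 3 h in KO (5.83 ± 0.19, adjusted p = 1.25e-07) and 32.4-fold in WT (5.02 ± 0.19, adjusted p = 2.79e-07). At 24 h the KO samples were still 2.00-fold above untreated (1.00 ± 0.19, adjusted p = 0.00204), and the WT difference of 0.47 ± 0.19 was not called (adjusted p = 0.0697). The WT difference was called under normexp (0.48, adjusted p = 0.00527). The 24 h changes of KO and WT did not differ past the threshold (0.53 ± 0.27, adjusted p = 0.405). The 24 h minus 3 h difference was -4.82 ± 0.19 in KO and -4.55 ± 0.19 in WT. Under normexp the 3 h rise was 4.30 in KO and 3.88 in WT and the later difference -3.61 in KO and -3.41 in WT, all still called, so the folds of this dim probe depend on the background correction.

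Dusp16, whose product MKP-7 acts on JNK, rose at 3 h and was still raised at 24 h. Its brighter probe (chr6:134665783-134665842, minus strand, mm9) read -1.59 and -1.52 in KO untreated, 2.40 and 2.36 in KO at 3 h, and -0.03 and -0.0031 in KO at 24 h. In WT it read -1.44 and -0.98 untreated, 2.03 and 2.05 at 3 h, and -0.29 and -0.15 at 24 h. The 3 times did not overlap in either genotype. The 3 h rise was 15.2-fold in KO (3.93 ± 0.14, adjusted p = 1.75e-07) and 9.49-fold in WT (3.25 ± 0.14, adjusted p = 5.67e-07). The 24 h rise was 2.90-fold in KO (1.54 ± 0.14, adjusted p = 3.19e-05) and 1.98-fold in WT (0.99 ± 0.14, adjusted p = 5.43e-04). Its dimmer probe (chr6:134668003-134668062) was not well above background in KO untreated. It gave the same directions in these comparisons, but the WT difference at 24 h was not called (0.56 ± 0.31, adjusted p = 0.170 over 28426 probes).

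Dusp1, which encodes MKP-1, rose at 3 h and stayed up at 24 h. Its probe (chr17:26642526-26642536 as the files give it, minus strand, mm9) read 0.15 and 0.34 in KO untreated, 3.68 and 3.63 in KO at 3 h, and 3.34 and 3.49 in KO at 24 h. In WT the levels were 0.71 and 0.86 untreated, 3.13 and 2.99 at 3 h, and 2.93 and 2.94 at 24 h. Each LPS sample lay above each untreated sample, and at both LPS times the KO samples lay above the WT samples. The rise was 10.6-fold at 3 h in KO (3.41 ± 0.11, adjusted p = 1.04e-07) and 4.86-fold in WT (2.28 ± 0.11, adjusted p = 8.54e-07). At 24 h it was 9.01-fold in KO (3.17 ± 0.11, adjusted p = 1.47e-07) and 4.43-fold in WT (2.15 ± 0.11, adjusted p = 1.43e-06). The change between 3 h and 24 h was not called in KO (-0.24, 95% interval -0.48 to 0.0041) or in WT (-0.13, interval -0.37 to 0.11). Under normexp the KO change was called (-0.33, adjusted p = 0.0197).

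Dusp5, a nuclear phosphatase that acts on ERK, was dim. Its probe (chr19:53615682-53615741, plus strand, mm9) read -5.63 and -5.82 in KO untreated and -3.95 and -4.57 in KO at 3 h. In WT it read -6.42 and -6.67 untreated and -4.77 and -4.87 at 3 h. At 24 h it was not well above background on any of the 4 arrays, so its 24 h level has only a bound. It rose 2.75-fold at 3 h in KO (1.46 ± 0.20, adjusted p = 2.97e-04) and 3.30-fold in WT (1.72 ± 0.20, adjusted p = 1.46e-04). With another background correction (normexp) these 3 h differences were 0.93 in KO and 0.80 in WT, and both were still called. Bounds are taken against the lowest signal among probes well above background on the same array. By 24 h Dusp5 had fallen at least 3.75-fold from 3 h in KO (adjusted p = 2.30e-06) and at least 3.76-fold in WT (adjusted p = 6.50e-05). These bounds hold for the processed signal only: under normexp the 24 h minus 3 h differences were -0.83 in KO and -0.57 in WT, smaller than the bounds, and both were still called. Against untreated it fell at least 1.36-fold at 24 h in KO (adjusted p = 4.90e-05), and the WT difference was not called (adjusted p = 0.318). The KO call at 24 h was absent under normexp, where the difference was 0.10 (adjusted p = 0.507).

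Dusp4, the remaining inducible nuclear member, did not share this course. Its probe (chr8:35882045-35882104, plus strand, mm9) read -4.43 and -4.00 in KO untreated, -3.11 and -3.06 in KO at 3 h, and -3.79 and -3.45 in KO at 24 h. The WT samples read -2.39 and -1.70 untreated, -2.52 and -2.58 at 3 h, and -2.51 and -2.53 at 24 h. All KO samples lay below all WT samples. It rose 2.19-fold at 3 h in KO (1.13 ± 0.23, adjusted p = 0.00317), and the WT difference of -0.50 ± 0.23 was not called (adjusted p = 0.105). Without WT untreated replicate 1 the WT difference at 3 h was -0.85. At 24 h neither genotype passed the threshold against untreated (0.60 ± 0.23, adjusted p = 0.0519 in KO; -0.47 ± 0.23, adjusted p = 0.119 in WT). The KO difference at 24 h was called in 7 of 14 alternative settings, among them the mouse as a replicate block (adjusted p = 0.0398).

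The cytoplasmic ERK phosphatases Dusp6 and Dusp7 fell at 3 h. Dusp6, which encodes MKP-3 and is itself a known target of ERK signalling, was read by a probe at chr10:98729985-98730044 (plus strand, mm9). It stood at 2.34 and 3.09 in KO untreated, 0.22 and 0.57 in KO at 3 h, and 2.37 and 2.88 in KO at 24 h. In WT it stood at 3.64 and 3.83 untreated, 0.85 and 0.72 at 3 h, and 3.40 and 3.32 at 24 h. The 3 h samples lay below all others, and the 24 h samples overlapped the untreated ones in KO and not in WT. Dusp6 fell 4.995-fold at 3 h in KO (-2.32 ± 0.26, adjusted p = 9.31e-05) and 7.73-fold in WT (-2.95 ± 0.26, adjusted p = 3.14e-05). At 24 h the difference from untreated was not called in KO (-0.09, 95% interval -0.68 to 0.50) or WT (-0.37, interval -0.96 to 0.22). The WT difference was called in a fit to only the groups compared (adjusted p = 0.0448). From 3 h to 24 h it rose by 2.23 ± 0.26 in KO and 2.58 ± 0.26 in WT.

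Dusp7, a close relative of Dusp6, fell with little spread between replicates. Its probe (chr9:106277985-106278044, plus strand, mm9) read 2.09 and 2.09 in KO untreated, 0.60 and 0.54 in KO at 3 h, and 1.20 and 1.27 in KO at 24 h. In WT it read 2.10 and 2.06 untreated, 0.42 and 0.48 at 3 h, and 1.63 and 1.56 at 24 h. The 3 times were separate in each genotype. The fall was 2.88-fold at 3 h in KO (-1.52 ± 0.08, adjusted p = 9.77e-07) and by a like amount in WT (-1.63 ± 0.08, adjusted p = 9.04e-07). It was still below untreated at 24 h, 1.81-fold in KO (-0.86 ± 0.08, adjusted p = 2.96e-05) and 1.40-fold in WT (-0.49 ± 0.08, adjusted p = 9.86e-04).

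Dusp10, which encodes the JNK and p38 phosphatase MKP-5, was a late gene. Its probe (chr1:185898608-185898667, plus strand, mm9) read -4.09 and -3.78 in KO untreated, -4.00 and -3.99 in KO at 3 h, and -2.35 and -2.19 in KO at 24 h. In WT it read -3.40 and -3.29 untreated, -4.12 and -4.00 at 3 h, and -2.502 and -2.502 at 24 h. At 3 h it did not move past the threshold in KO (-0.06, 95% interval -0.33 to 0.21) and fell 1.64-fold in WT (-0.72 ± 0.12, adjusted p = 0.00124). The WT fall was smaller with normexp (-0.43) and still called. At 24 h it rose 3.17-fold in KO (1.66 ± 0.12, adjusted p = 8.18e-06) and 1.80-fold in WT (0.85 ± 0.12, adjusted p = 5.07e-04).

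Dusp8 was measured by a pair of probes that read opposite strands. The brighter one (chr7:149267032-149267091, plus strand, mm9) carries the name 5530400B01Rik in the files, a synonym that the reference table gives for Dusp8. This probe stands for Dusp8 in the counts and figures, but it lies on the strand opposite to the gene and may not measure Dusp8 mRNA. It read -3.23 and -3.37 in KO untreated, -2.76 and -3.02 in KO at 3 h, -1.79 and -3.08 in KO at 24 h, and between -3.43 and -2.85 in the 6 WT samples. The probe named Dusp8 (chr7:149267534-149267593) lies on the minus strand, the strand on which RefSeq places the gene, and was well above background on 10 of 12 arrays. It read -6.08 in the single KO untreated sample with a usable spot, -7.35 and -3.96 in KO at 3 h, -4.86 and -4.68 in KO at 24 h, and between -6.67 and -4.82 in WT samples. Neither probe passed the threshold in any comparison, and the largest difference of the plus-strand probe was 0.87 ± 0.35 for KO at 24 h against untreated (adjusted p = 0.0609). The high value of -1.79 belongs to KO 24 h replicate 1, the array with the most outlier spots (589, against 132 to 214 on the others). The 24 h difference was called in 6 of 15 alternative settings, among them the mouse as a replicate block (adjusted p = 0.0274). It was 1.51 without KO 24 h replicate 2 (adjusted p = 4.32e-04) and 0.22 without KO 24 h replicate 1 (adjusted p = 0.333).

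**Figure D2:**
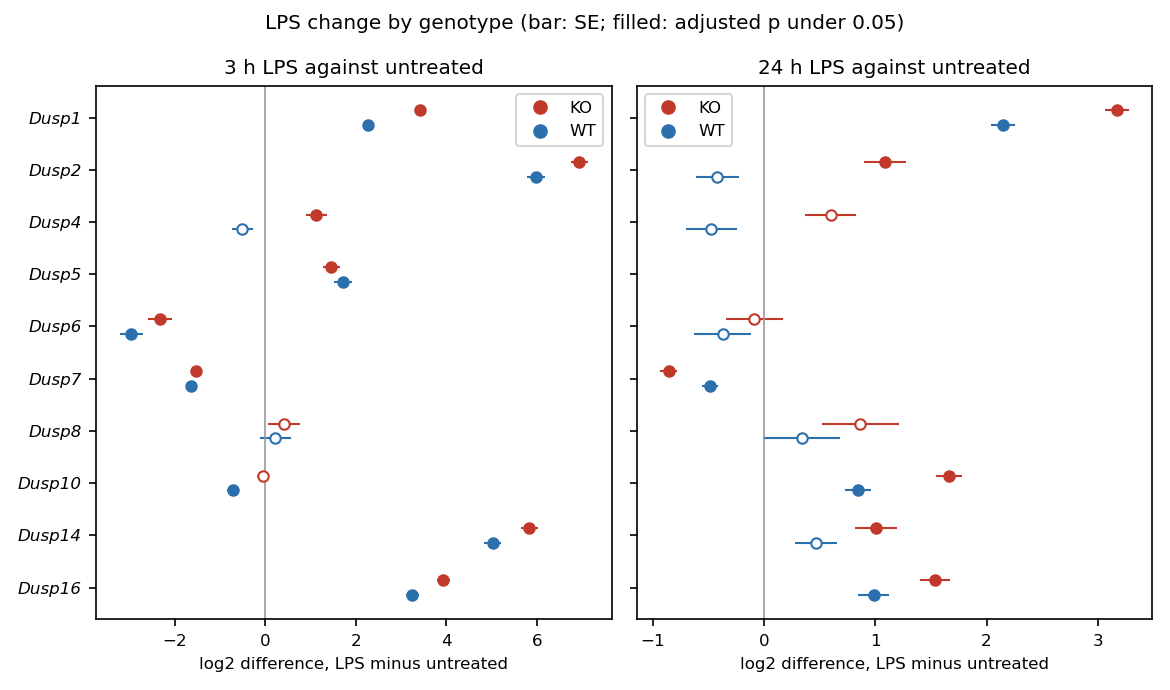
Log2 difference from untreated at 3 h (left panel) and 24 h (right panel) for each gene in KO (red) and WT (blue). Bars are standard errors and filled points had an adjusted p under 0.05; Dusp5 at 24 h is left out because it was not well above background there. At 3 h the points for Dusp2, Dusp14, Dusp16, Dusp1 and Dusp5 lie to the right of 0 in both genotypes and those for Dusp6 and Dusp7 to the left.

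At 24 h 5 of the 10 genes were above untreated in KO cells (Dusp1, Dusp10, Dusp16, Dusp2 and Dusp14) and 2 below (Dusp5 and Dusp7), beside 26.0% of all genes called higher and 31.5% lower (57.6% in all). In WT cells 3 were above (Dusp1, Dusp16 and Dusp10) and 1 below (Dusp7), beside 23.6% of all genes called higher and 26.4% lower (50% in all). The medians of the 10 genes were 0.93 in KO and 0.04 in WT, and those of all genes -0.07 in KO and -0.04 in WT. Between 24 h and 3 h 3 genes rose and 4 fell in each genotype: Dusp6, Dusp7 and Dusp10 rose, and Dusp2, Dusp14, Dusp16 and Dusp5 fell. The background for that comparison was 26.3% higher and 32.6% lower in KO (59.0% in all), and 25.7% higher and 26.9% lower in WT (52.6% in all).

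The 5 genes that rose at 3 h in both genotypes are shown by their upstream sequence, to compare what lies before genes that rose together. The RefSeq table (GRCm38.p6, not the mm9 build of the probe positions) held a start for 9 of the 10 genes. The windows are the 250 bases before it, 5′ to 3′ on the gene's strand. Capitals mark matches to 6 motifs searched on both strands: the cAMP response element TGACGTCA, its short core TGACG, the AP-1 element TGANTCA, the kappa B consensus, the CArG box bound by serum response factor, and TATAAA.
Dusp1, chr17:26508473-26508722, minus strand: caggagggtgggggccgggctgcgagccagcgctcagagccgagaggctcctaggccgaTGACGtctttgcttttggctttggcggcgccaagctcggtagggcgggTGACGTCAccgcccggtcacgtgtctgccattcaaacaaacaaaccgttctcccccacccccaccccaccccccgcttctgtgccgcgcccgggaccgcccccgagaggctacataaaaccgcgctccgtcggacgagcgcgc
Dusp2, chr2:127335909-127336158, plus strand: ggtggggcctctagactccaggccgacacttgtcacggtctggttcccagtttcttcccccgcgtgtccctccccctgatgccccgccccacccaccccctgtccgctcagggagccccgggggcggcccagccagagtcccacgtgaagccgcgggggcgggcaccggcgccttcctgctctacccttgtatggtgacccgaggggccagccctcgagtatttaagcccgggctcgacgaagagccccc
Dusp5, chr19:53528895-53529144, plus strand: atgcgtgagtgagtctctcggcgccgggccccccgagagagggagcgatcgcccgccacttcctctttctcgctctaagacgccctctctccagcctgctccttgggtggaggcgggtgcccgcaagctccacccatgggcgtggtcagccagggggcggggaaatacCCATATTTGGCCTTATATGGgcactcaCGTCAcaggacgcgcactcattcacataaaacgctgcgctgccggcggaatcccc
Dusp14, chr11:84068358-84068607, minus strand: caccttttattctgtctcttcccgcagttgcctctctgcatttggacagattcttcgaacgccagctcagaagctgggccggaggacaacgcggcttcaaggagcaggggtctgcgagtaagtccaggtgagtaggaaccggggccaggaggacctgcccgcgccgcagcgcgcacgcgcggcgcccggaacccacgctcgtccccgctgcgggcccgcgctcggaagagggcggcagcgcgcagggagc
Dusp16, chr6:134792629-134792878, minus strand: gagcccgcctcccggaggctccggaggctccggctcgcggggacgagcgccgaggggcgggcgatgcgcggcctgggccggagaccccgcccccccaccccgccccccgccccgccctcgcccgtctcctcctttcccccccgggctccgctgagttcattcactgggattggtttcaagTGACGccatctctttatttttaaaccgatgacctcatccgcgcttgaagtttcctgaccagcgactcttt

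The Dusp1 window held a cAMP response element at -143 to -136 from the start and a TGACG core at -191, and the 2 cores inside the element overlap it. Such an element was present in 1.55% of 32851 windows of the same length, and the core in 17.8%. The Dusp5 window held adjacent CArG boxes at -82 to -73 and -72 to -63, a motif found in 1.47% of windows, and a core at -55 to -51. The Dusp16 window held a core at -70 to -66. No motif matched in the windows of Dusp2 and Dusp14, nor in those of Dusp6, Dusp7 and Dusp10. The Dusp8 window held a pair of cAMP response elements at -107 and -63. AP-1 elements were in 6.75% of all windows, kappa B matches in 7.25% and TATAAA in 12.4%, and none was in a window of these 9 genes. A match describes letters in this window and is not a measured site.

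In untreated cells 4 of the 10 genes differed between KO and WT, beside 3.73% of all genes called higher in KO and 3.03% lower (6.76% in all). Dusp4, Dusp10 and Dusp1 were lower in KO and Dusp5 was higher. Dusp4 differed most, with levels of -4.43 and -4.00 in KO against -2.39 and -1.70 in WT, a 4.49-fold lower signal (-2.17 ± 0.23, adjusted p = 0.00445). It was called in 13 of 14 alternative settings, the exception being a fit to these 4 arrays alone (adjusted p = 0.121), where 0 of all genes passed. Dusp10 was 1.501-fold lower (-0.59 ± 0.12, adjusted p = 0.0289), Dusp1 1.45-fold lower (-0.54 ± 0.11, adjusted p = 0.0273) and Dusp5 1.77-fold higher (0.82 ± 0.20, adjusted p = 0.0459). For each of these 3 genes the KO and WT samples did not overlap.

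Leaving out single arrays removed the 3 smaller calls. The Dusp1 call was lost without WT untreated replicate 1 (adjusted p = 0.0555), WT untreated replicate 2 (0.163) or KO untreated replicate 1 (0.195). The Dusp10 call was lost without the same arrays (0.0699, 0.166 and 0.185), and the Dusp5 call without any of the 4 untreated arrays (0.0783 to 0.267). Dusp5 was also not called with normexp, where its difference was 0.27 (adjusted p = 0.199). Dusp6 narrowly missed the threshold in untreated cells, with 2.34 and 3.09 in KO against 3.64 and 3.83 in WT (-1.02 ± 0.26, adjusted p = 0.0529), and was called in 8 of 14 alternative settings, among them the mouse as a random replicate block (adjusted p = 0.0431). Dusp7 read 2.09 and 2.09 in KO against 2.10 and 2.06 in WT (0.01, 95% interval -0.16 to 0.19). The other members were not called: Dusp2 at -0.32 ± 0.19, Dusp8 at 0.01 ± 0.35 by its plus-strand probe, Dusp14 at -0.51 ± 0.19 and Dusp16 at -0.35 ± 0.14. The dimmer Dusp16 probe, not well above background in KO untreated, stood at -0.92 ± 0.31 (adjusted p = 0.119 over all probes). With the mean over its probes Dusp16 was called lower in KO (-0.63, adjusted p = 0.0320).

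Other measures moved with genotype in untreated cells. The summed level of 8 dendritic cell markers, in multiples of the array's 75th percentile, was 1.87 and 2.29 in KO untreated against 5.15 and 4.91 in WT untreated. That of 5 B cell markers was 1.68 and 1.61 in KO against 0.757 and 0.826 in WT, and that of 10 macrophage markers 361 and 347 in KO against 318 and 296 in WT. Among dendritic markers, Cd209a and Ccl22 were below background in both genotypes, and Ccr7 and Dpp4 in KO. Neutrophil markers (7 of 8 on the array) summed to 20.4 and 21.1 in KO against 22.9 and 21.7 in WT, and 6 T and NK cell markers to 5.55 and 5.15 in KO against 4.54 and 4.44 in WT. Markers of stroma summed to 3.36 and 1.98 in KO against 2.43 and 2.07 in WT, and those of erythroid cells and of mast cells, basophils and eosinophils to at most 0.0716 and 0.0381 in any sample of the study. The spike-in slope differed between genotypes as given above. The part of these in the Dusp differences was not tested, and in bulk RNA fewer cells of a type and less RNA per cell cannot be told apart.

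**Figure D3:**
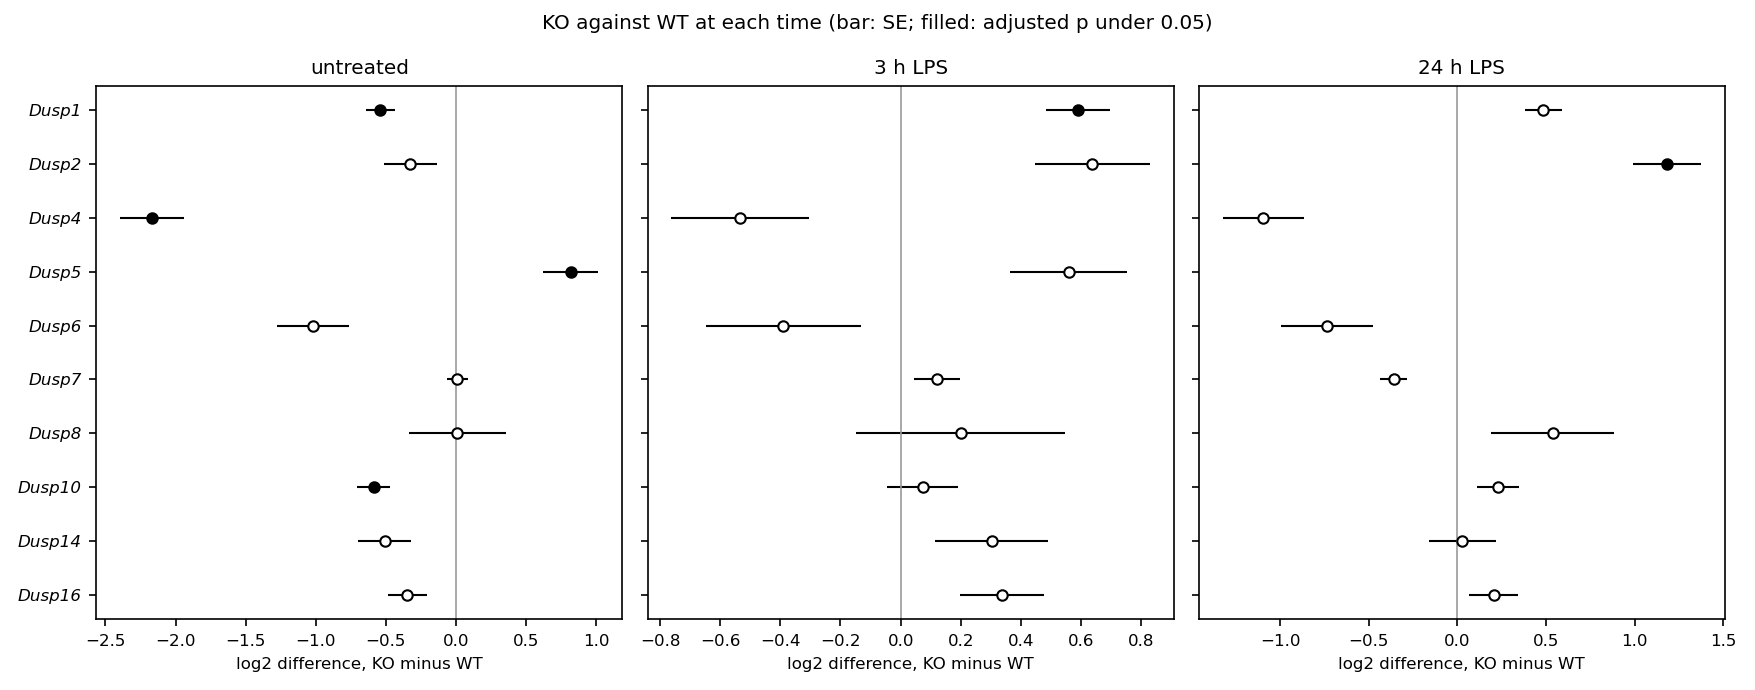
Log2 difference of KO from WT in untreated cells and at 3 h and 24 h of LPS for each gene, with standard errors. Filled points had an adjusted p under 0.05, and Dusp5 at 24 h is left out because neither genotype was well above background. Dusp4 lies furthest below 0 in untreated cells (-2.17), and Dusp1 changes side from -0.54 untreated to 0.59 at 3 h.

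At 3 h of LPS only Dusp1 among the 10 genes was called between genotypes, higher in KO, beside 1.07% of all genes called higher and 0.618% lower (1.68% in all). Its levels of 3.68 and 3.63 in KO against 3.13 and 2.99 in WT were 1.51-fold apart (0.59 ± 0.11, adjusted p = 0.0470). The call was lost without WT 3 h replicate 1 (adjusted p = 0.178), WT 3 h replicate 2 (0.196) or KO 3 h replicate 1 (0.201), and in 3 further settings with adjusted p of 0.0532 to 0.225. Dusp2 and Dusp5 were called only when KO 3 h replicate 2 was left out (0.89, adjusted p = 0.0270, and 0.87, adjusted p = 0.0188). With all arrays their differences were 0.64 ± 0.19 (adjusted p = 0.1005) and 0.56 ± 0.20 (adjusted p = 0.139). Dendritic markers summed to 5.97 and 6.93 in KO against 8.20 and 7.13 in WT at this time. Neutrophil markers summed to 11.8 and 13.8 in KO against 16.9 and 17.1 in WT, B cell markers to 0.840 and 0.785 in KO against 0.457 and 0.618 in WT, and macrophage markers to 519 and 439 in KO against at most 397 in WT. The part of these in the result was not tested.

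At 24 h the called member was Dusp2, the 1 gene of the 10 past the threshold, beside 0.718% of all genes called higher in KO and 1.67% lower (2.39% in all). Its levels were 0.73 and 1.04 in KO against -0.40 and -0.20 in WT, 2.27-fold higher in KO (1.18 ± 0.19, adjusted p = 0.0286). It lost the call without WT 24 h replicate 1 (adjusted p = 0.155), WT 24 h replicate 2 (0.1004) or KO 24 h replicate 2 (0.0597). Another 3 members with a measured level sat just above the threshold: Dusp4 (-1.10 ± 0.23, adjusted p = 0.0513), Dusp7 (-0.36 ± 0.08, adjusted p = 0.0532) and Dusp1 (0.48 ± 0.11, adjusted p = 0.0555). Dusp4 was called in 6, Dusp7 in 5 and Dusp1 in 4 of 14 alternative settings, Dusp4 also with the mouse as a random replicate block (adjusted p = 0.0486). Dusp5 was below background in both genotypes and has no fold. Dendritic markers summed to 1.03 and 1.22 in KO against 1.56 and 1.53 in WT, and B cell markers to 0.674 and 0.758 in KO against 0.523 and 0.520 in WT. The part of these in the result was not tested.

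Whether the response to LPS itself differed between genotypes was tested as an interaction. At 3 h 0 of the 10 genes passed, beside 0.0348% of all genes (8 genes, 0.0261% higher and 0.00871% lower). An unadjusted p under 0.05 was found for 6 of the 10 members and 2855 of 22972 genes. Dusp1 came nearest, with a KO response larger by 1.13 ± 0.15 (adjusted p = 0.0665), and was called in 6 of 18 alternative settings. Dusp4 had the largest estimate, 1.63 ± 0.32, with an adjusted p of 0.116. At 24 h an unadjusted p under 0.05 was found for 7 members and 3365 of 22970 genes. Dusp1 alone passed the threshold, beside 0.152% of all genes called higher and 0.174% lower (0.327% in all). Its change by mouse was 3.19 and 3.15 in the KO mice against 2.22 and 2.07 in the WT mice, a difference of 1.02 ± 0.15 (adjusted p = 0.0453). It was called in 9 of 18 alternative settings, and with the mouse as a replicate block its adjusted p was 0.0530. It was lost without any 1 of the 4 WT untreated or 24 h arrays (adjusted p of 0.0776 to 0.130), without KO untreated replicate 1 (0.126) or without KO 24 h replicate 2 (0.0537).

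Dusp2 showed a 24 h interaction of 1.51 ± 0.27 that narrowly missed (adjusted p = 0.0688). Its 24 h changes were 0.97 and 1.21 in the KO mice and -0.36 and -0.48 in the WT mice, so each mouse of a genotype moved the same way. Dusp10 had an estimate of 0.82 ± 0.17 (adjusted p = 0.0835). The interaction of Dusp5 at 24 h is given without a size because 24 h levels were below background (adjusted p = 0.0509). Averaged over the 3 times with each mouse counted once, 0 of the 10 genes were called between KO and WT, beside 0.0% of all genes. An unadjusted p under 0.05 was found for 3 members and 5530 of 22654 genes. Commd1 itself was not called in this fit (-2.99 ± 0.19, adjusted p = 0.127 in limma), so the fit cannot show that a member did not differ. Dusp4 had the largest mean difference, -1.27 ± 0.13 (adjusted p = 0.127 in limma on 4 mouse means). The comparisons with untreated cells, and the interactions built from them, share the same untreated samples.

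Across the 12 arrays, the genes whose levels ran most like those of each member with a range of at least 2 between group means were found by Pearson correlation among 16894 named genes. The arrays share mice and LPS times, so these values describe the pattern and carry no test. Dusp5 is left out here because it was not well above background on the 4 arrays of 24 h. Dusp14 ran closest to Tnfsf9, which encodes the 4-1BB ligand (r = 0.999), and then to Slc39a14 and Dcaf13. Dusp16 ran closest to Fnbp1l (0.999) and Mmp13 (0.998), Dusp2 to Nck1 (0.997) and Snn (0.996), and Dusp1 to Lhx2 (0.996) and Arhgap8 (0.996). Dusp6 was matched by Cdca7 (0.992) and Zfp367 (0.987), and Dusp4 by 9430037G07Rik (0.974).

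The rest of the pathway was read from 8 lists. The list of other dual-specificity phosphatases also holds enzymes outside the pathway, such as the RNA phosphatase Dusp11. Counts at 3 h are set beside 26.4% of all genes called higher and 25.7% lower in KO and 23.2% higher and 23.4% lower in WT. At 3 h, Mapkapk2, a kinase acted on by p38, rose by 2.48 ± 0.11 in KO and 2.25 ± 0.11 in WT, and Mknk2, acted on by ERK and p38, fell (-2.10 in KO and -1.73 in WT). Of the 10 kinases acted on by MAP kinases, 6 rose and 2 fell in KO, and 5 rose and 2 fell in WT. Of 12 MAP kinases tested, 3 rose and 3 fell in KO, and 4 rose and 2 fell in WT. Mapk6, which encodes the atypical kinase ERK3, rose by 2.82 ± 0.11 in KO and 1.94 ± 0.11 in WT. Mapk7, which encodes ERK5, fell (-1.67 in KO and -1.59 in WT).

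Of the 7 MAP kinase kinases, 3 rose and 3 fell in KO and 3 rose and 2 fell in WT at 3 h, where 52.1% of all genes were called in KO and 46.6% in WT. Map2k4, which acts on JNK and p38, rose at 3 h by 2.29 ± 0.13 in KO and 1.67 ± 0.13 in WT, and Map2k3, which acts on p38, rose as well. Map2k6, which acts on p38, fell at both times, with -2.76 in KO and -1.95 in WT at 24 h. Of the 17 MAP3 kinases and TAK1 partners, 7 rose and 7 fell in KO and 5 rose and 7 fell in WT at 3 h. Map3k8, which encodes the Tpl2 kinase that links Toll-like receptors to ERK, rose by 2.55 ± 0.15 in KO and 3.14 ± 0.15 in WT.

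Spred1, an inhibitor of the Ras to ERK route, rose at 3 h by 3.79 ± 0.14 in KO and 2.52 ± 0.14 in WT. The next counts are again beside 26.4% higher and 25.7% lower of all genes in KO and 23.2% higher and 23.4% lower in WT. Of the 9 Sprouty, Spred and ETV genes tested, which include known ERK targets, 3 rose and 2 fell in KO and 1 rose and 3 fell in WT. Of the other phosphatases of MAP kinases, 2 of 6 rose and 2 fell in each genotype. Ptpn7, a tyrosine phosphatase of ERK and p38, fell in both (-1.39 each), and Ppm1b rose by 1.53 ± 0.12 in KO and 1.24 ± 0.12 in WT. Among 17 other dual-specificity phosphatases tested, 4 rose and 7 fell in KO and 4 rose and 5 fell in WT at 3 h. Dusp11, an RNA phosphatase, rose by 1.89 ± 0.14 in KO and 1.33 ± 0.14 in WT. Among 11 scaffolds 2 rose and 4 fell in KO and 2 rose and 5 fell in WT, with Arrb1, a beta-arrestin, at -1.71 in KO and -1.35 in WT.

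At 24 h 26.0% of all genes were called higher and 31.5% lower in KO, and 23.6% higher and 26.4% lower in WT. Among the other dual-specificity phosphatases 4 were higher and 5 lower in KO, and 2 higher and 5 lower in WT. Dusp28 was the member furthest up, by 2.69 ± 0.08 in KO and 2.499 ± 0.08 in WT. For MAP kinases the counts were 5 higher and 5 lower in KO and 3 higher and 3 lower in WT, and for MAP kinase kinases 2 higher and 4 lower in KO and 2 higher and 2 lower in WT. The MAP3 kinases and TAK1 partners had 6 higher and 3 lower in KO and 4 higher and 1 lower in WT. The kinases acted on by MAP kinases had 3 higher and 5 lower in KO and 2 higher and 3 lower in WT. The other phosphatases had 2 higher and 3 lower in KO and 1 higher and 1 lower in WT. The Sprouty, Spred and ETV genes had 4 higher and 2 lower in KO and 2 higher and 2 lower in WT, and the scaffolds 2 higher and 6 lower in KO and 2 higher and 5 lower in WT.

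Between KO and WT in untreated cells, where 6.76% of all genes were called, 9 genes of the 8 lists were called. Of the 9 Sprouty, Spred and ETV genes 2 were lower in KO and 0 higher. Etv5 read 1.59 and 2.26 in KO against 3.27 and 3.78 in WT (-1.60 ± 0.29, adjusted p = 0.0234), and Spred1 1.30 and 1.46 in KO against 2.02 and 2.11 in WT (-0.69 ± 0.14, adjusted p = 0.0287). Of 12 MAP kinases Mapk12 (-1.01 ± 0.15, adjusted p = 0.0128) and Mapk6 (-0.52 ± 0.11, adjusted p = 0.0364) were lower in KO and Mapk14, which encodes p38 alpha, was higher (0.45 ± 0.09, adjusted p = 0.0267). Of 17 MAP3 kinases and TAK1 partners Map3k8 (0.80 ± 0.15, adjusted p = 0.0252) and Map3k14 (0.76 ± 0.14, adjusted p = 0.0221) were higher in KO. Rps6ka3 was lower in KO (-0.62 ± 0.12, adjusted p = 0.0266) and Arrb2 higher (0.54 ± 0.09, adjusted p = 0.0203), and 0 genes were called in the other 3 lists. At 3 h (1.68% of all genes called) 1 of the MAP3 kinases and TAK1 partners was higher in KO. At 24 h (2.39% called) 2 of that list were lower and 1 other dual-specificity phosphatase was higher. The Sprouty, Spred and ETV genes had 0 called at both LPS times. List genes were not followed through the alternative settings.

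**Figure D4:**
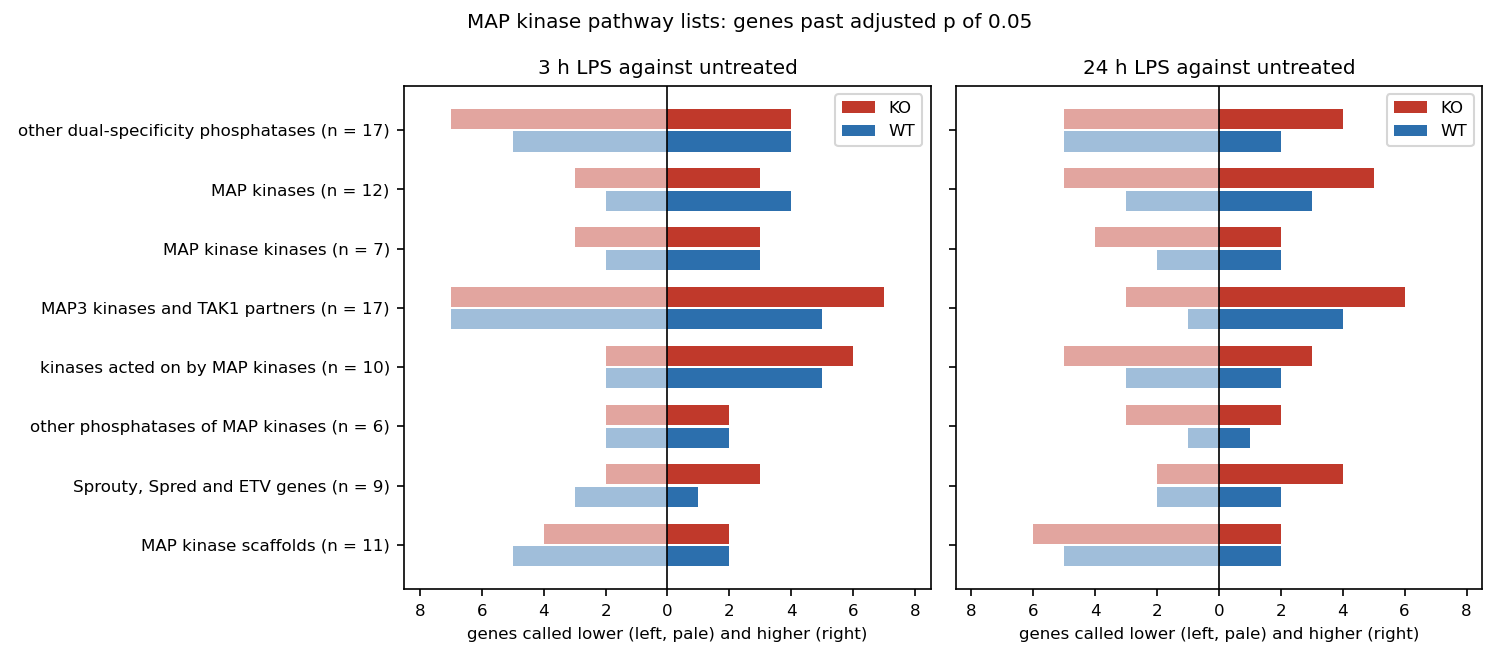
Number of genes called higher (right of 0) and lower (left of 0, pale) than untreated at 3 h and 24 h of LPS in 8 lists. The lists hold MAP kinase pathway genes and other dual-specificity phosphatases, shown for KO (red, above) and WT (blue, below). The list size tested is given with each name. At 3 h the kinases acted on by MAP kinases had 6 higher and 2 lower in KO and 5 higher and 2 lower in WT.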

How the data were processed

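Gene expression was measured on 12 single-colour Agilent arrays, 1 per sample. Per the file headers, the authors' scanner files give for each spot a processed intensity, made with spatial and multiplicative detrending and with local background correction turned off, together with the raw mean and background intensity and flags. Per the submitters' processing notes, images were read with Agilent Feature Extraction 10.7.3.1. The authors' deposited table holds log2 values. Per array, 99.5% to 100% of detected probes matched log2 of the scanner's processed signal less a single constant (tolerance 0.01), and column medians ran from -4.50 to -4.30, so genes were not centred.

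Control and outlier spots were dropped, repeat spots averaged, and the 75th percentile of log2 processed intensity was subtracted on each array. The 39429 probes were named through the RefSeq table (78.7% matched) and kept the file's name otherwise. Probes had to exceed background clearly on the 2 arrays of some group, which 28426 did, and each gene was read by its brightest. The 22974 genes were fitted in limma 3.58.1 (R 4.3.3) with a mean per group over all 12 arrays (6 residual and 2.23 prior degrees of freedom), and moderated two-sided tests were adjusted by Benjamini-Hochberg over all genes. A second fit used 4 mouse means. The fit was tested on simulated data with known changes in KO at 3 h only and independent noise, which does not cover the genotype or interaction tests.

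The labels give replicate numbers and no mouse. These numbers were taken to name mice within KO and within WT, which pairs the 3 cultures of each mouse. Across genes, their residual correlations were 0.35, 0.13 and 0.12 in KO and 0.19, 0.13 and 0.15 in WT. Alternatives were normexp background correction (offset 50), scaling over probes detected on all arrays, quantile normalization, the deposited table, filters, the mean over a gene's probes, only the groups compared, a variance trend, the mouse as a block, and leaving out each array. The genes, lists and tests were chosen with earlier results of these data known. Named genes are all 10 members, up to 3 called genes with the largest change per list and comparison, and the 3 most alike genes of members with a range of at least 2. Motifs were searched with Python 3.11.15. Age, strain and sex were not analysed here.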

Additional observations from a re-analysis of the deposited data

Results flagged for a closer look

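The difference between KO and WT in the 24 h LPS response of Dusp1 was 1.02 on the log2 scale (KO minus WT), and the test of that difference passed the threshold (adjusted p = 0.0453, limma). It was called in 9 of 18 alternative settings and not with the mouse as a replicate block (adjusted p = 0.0530). Dusp1 rose by 3.17 ± 0.11 in KO and 2.15 ± 0.11 in WT at 24 h, with 3.19 and 3.15 in the KO mice and 2.22 and 2.07 in the WT mice. In untreated cells the KO level was lower (-0.54 ± 0.11), and at 24 h the KO minus WT difference was 0.48 ± 0.11 (adjusted p = 0.0555).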

How the results depend on the processing

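With 1 exception, each LPS call of a member kept its direction and its side of the threshold in every alternative that was run. LPS calls here are 24 h or 3 h against untreated and 24 h against 3 h. The exception was Dusp5 in KO at 24 h against untreated, which with normexp stood at 0.097 (adjusted p = 0.507). Some LPS differences not called in the main fit were called in an alternative. Besides those of Dusp4, Dusp8 and Dusp14 given above, these included Dusp2 and Dusp6 in WT at 24 h, both lower. Dusp1 in KO was also called lower for 24 h against 3 h with normexp. Genotype calls depended more on the setting. The number of members called between KO and WT in untreated cells was 4, and it was 1 with no filter on dim probes, 0 with only the groups compared, and 1 to 4 when 1 array was left out. At 3 h it was 1, and 0 with quantile normalization, with no filter or with only the groups compared, and 0 to 3 with 1 array left out. At 24 h it was 1; it was 4 with normexp, with scaling over probes detected on all arrays, with only probes detected on all arrays or with a variance trend, 3 with the deposited table, 2 with quantile normalization, 0 with no filter or only the groups compared, and 0 to 1 with 1 array left out. For the difference of the 3 h response it was 0, and 1 with normexp, the deposited table, only probes detected on all arrays or a variance trend, and 0 to 1 with 1 array left out. For the 24 h response it was 1; it was 2 with normexp, scaling over detected probes, the deposited table or the mean over probes, 3 with quantile normalization, only probes detected on all arrays or a variance trend, 0 with no filter or only the groups compared, and 0 to 1 with 1 array left out. For mouse means it was 0, and 1 with normexp or a variance trend and 0 to 2 with 1 mouse left out, where leaving out KO replicate 2 called Dusp4 and Dusp6.

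With the mouse as a replicate block (paired within genotype), 9 members were called in KO at 24 h against untreated where 7 were called without it. Between KO and WT at 24 h, 2 were called (random block) where 1 was called without it. For the difference of the 24 h response 0 were called, where 1 was called without it. Only these genotype counts of members moved by over 1.5 times with the block. A slide block was not run, since each slide holds 1 time. For single members in the settings that left out no array or mouse, 1105 values stayed on the same side of the threshold. In these settings 57 values newly passed it, 16 no longer did, and 1 changed direction and lost its call. Across single members, with an array or mouse left out, 523 values kept direction and side of the threshold, 15 newly passed it and 22 no longer did.

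Normexp moved the median of all genes by 0.29 in KO and 0.22 in WT for 24 h against untreated and by 0.23 in KO and 0.18 in WT for 24 h against 3 h. Scaling over detected probes moved it by -0.15 in KO and -0.12 in WT at 3 h and by -0.12 in KO at 24 h, and quantile normalization by -0.13 in KO at 3 h and 0.11 in KO for 24 h against 3 h. Of all genes called, 64.6% were higher at 24 h in KO with normexp against 45.2% otherwise, and 64.5% against 47.2% in WT. Scaling over detected probes gave 38.8% against 50.7% at 3 h in KO, and 39.0% against 49.9% in WT. For 24 h against 3 h normexp gave 57.3% against 44.7% in KO and 59.9% against 48.9% in WT. Between KO and WT, normexp gave 48.6% against 30.1% at 24 h, and scaling over detected probes 44.9% against 63.3% at 3 h. For the 24 h response the share was 63.1% with normexp and 60.8% with the deposited values, against 46.7%.

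The number of all genes called between KO and WT also moved. In untreated cells it was 1553, and 2573 with normexp, 2368 with a variance trend, 453 with no filter, 0 with only the groups compared and as few as 152 with 1 array left out. At 3 h it was 387, and 1738 with normexp, 815 with the deposited table, 1467 with probes detected on all arrays, 1351 with a variance trend, 0 with no filter or only the groups compared, and 22 to 2929 with 1 array left out. At 24 h it was 549, and 840 with scaling over detected probes, 947 with probes detected on all arrays, 1047 with a variance trend, fewer with no filter, 0 with only the groups compared and as few as 60 with 1 array left out. For the 3 h response it was 8, with 0 to 106 over the settings and 0 to 371 with 1 array left out. For the 24 h response it was 75, with 0 to 278 over the settings, 151 with the replicate block and 4 to 240 with 1 array left out. For mouse means it was 0, with 286 under normexp, 172 with a variance trend and up to 1499 with 1 mouse left out. The cause of these shifts was not tested. Reading Dusp8 by the probe named Dusp8 was chosen after seeing the data, and it added no call. A dim probe limits what can be said of Dusp5. For Dusp8 the brighter probe lies on the strand opposite to the gene, and the other was not well above background on every array.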

Other observations

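Between 3 h and 24 h of LPS, in the direction of 24 h minus 3 h, the kinases acted on by MAP kinases included 3 that rose and 7 that fell in KO and 3 that rose and 6 that fell in WT. Rps6ka5, which encodes the histone kinase MSK1, fell (-2.32 in KO and -1.82 in WT), and Mapkapk3 fell (-1.88 in KO and -1.63 in WT). Mapk7 rose by 2.13 ± 0.09 in KO and 2.02 ± 0.09 in WT, and Arrb2, a beta-arrestin, rose by 1.76 ± 0.09 in KO and 1.81 ± 0.09 in WT. Map3k1 rose by 2.25 ± 0.11 in KO and 2.41 ± 0.11 in WT, and Map3k6 fell (-2.59 in KO and -2.08 in WT). The background is 26.3% of all genes called higher and 32.6% lower in KO, and 25.7% higher and 26.9% lower in WT.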
